A study of Drosophila melanogaster and Drosophila miranda with 8 samples.

Results

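The regions described here are the CLAMP peaks on XR, the right arm of the X-chromosome of D. miranda, in female larvae. They comprise every peak that the deposited lists place on the sequence named Muller-AD, which was taken as XR. XR held 789 of the 3577 peaks of D. miranda replicate 1 and 2874 of the 12523 peaks of replicate 2, or 3663 of the 33972 peaks in the 4 lists of the series. In 287 regions of XR, of 1300 such regions in D. miranda, a peak of replicate 1 overlapped a peak of replicate 2 by at least 1 bp. These are called shared regions below.

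The study measured CLAMP occupancy by ChIP-seq, in which chromatin is precipitated with an antibody and the recovered DNA is sequenced. The D. miranda groups were 2 anti-CLAMP libraries and 2 input libraries without antibody, which enter only through the peak calls, both from wild type 3rd instar female larvae kept at 18 °C. The D. melanogaster groups, used here for arm 3L, had the same genotype, sex, stage and number of libraries and were kept at 21 °C. Each chromatin preparation pooled many whole larvae, so the peaks are those of mixed tissues, and the labels do not say whether the 2 replicates came from separate collections of larvae.

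CLAMP is a zinc finger protein that binds GA-rich sequences across the Drosophila genome. In males it helps to bring the MSL complex, which raises transcription of X-linked genes, to its entry sites on the X-chromosome. XR arose when an autosome, Muller element D, fused to the ancestral X, whose arm is now XL, while the neoX joined the set of X-chromosomes more recently. In D. melanogaster the same element is the autosomal arm 3L. XR is therefore an X arm that was once an autosome, which makes the number and the form of its CLAMP sites of interest. Females do not assemble the MSL complex, so peaks in females record where CLAMP sits without it.

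The 2 replicates gave very different numbers of peaks on XR. Replicate 1 had 26.2 peaks per Mb, covering 1.15 Mb or 3.82% of the arm. Replicate 2 had 95.4 peaks per Mb, covering 4.52 Mb or 14.99% of it. Together they covered 5.33 Mb, or 17.7% of the 30.13 Mb up to the last peak. Per the study's methods, the ChIP library of replicate 2 had more aligned reads than that of replicate 1. The input library of replicate 2 had fewer than that of replicate 1. The part of depth in the numbers of peaks was not tested, since the deposited lists hold no read counts.

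XR carried CLAMP peaks at about the density of XL, the neoX and the pooled autosomes. In replicate 1 its 26.2 peaks per Mb (exact Poisson 95% interval 24.4 to 28.1) compared with 27.6 on XL, 27.1 on the neoX and 25.4 on the pooled autosomes 2, 4 and 5. In replicate 2 its 95.4 peaks per Mb (91.9 to 98.9) compared with 92.6, 92.8 and 89.1 in the same order. Shared regions lay at 9.53 per Mb on XR (8.45 to 10.7), 10.6 on XL, 9.92 on the neoX and 8.98 on the autosomes. The small chromosome 5 stood above XR in replicate 1, with 34.4 peaks per Mb (26.3 to 44.2), and in shared regions, with 16.4 per Mb (10.95 to 23.5) from 29 regions. All these intervals cover counting error only.

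**Figure D1:**
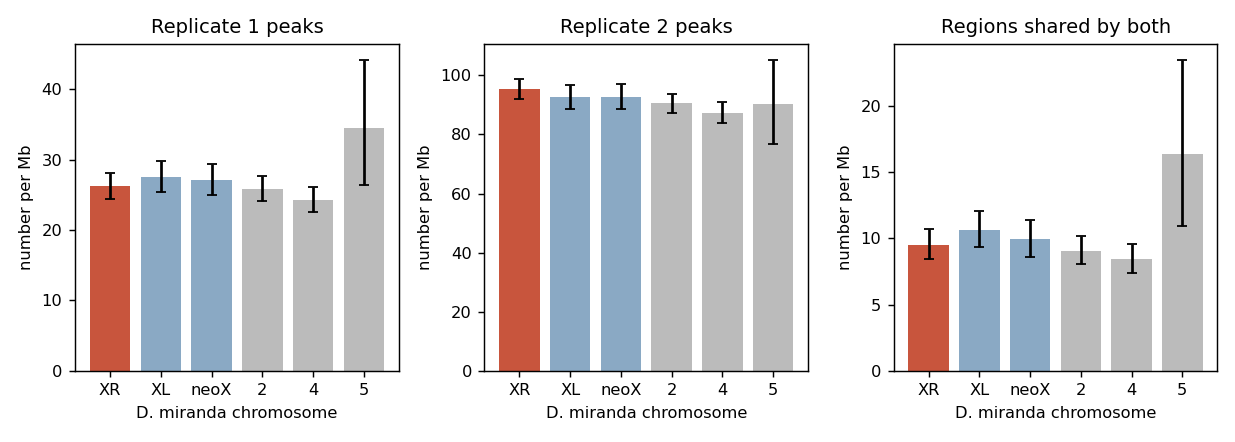
Peaks per Mb in replicate 1 (left), in replicate 2 (middle) and shared regions per Mb (right) on each D. miranda chromosome, with XR in red, the other X-chromosomes in blue and autosomes in gray. Error bars are exact Poisson 95% intervals for counting error, and the 26.2, 95.4 and 9.53 per Mb of XR lie close to the values of XL and the neoX.

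Of 9 comparisons of XR with another set of chromosomes, 1 passed the threshold. In replicate 2 XR had 1.07 times the peak density of the autosomes (95% interval 1.02 to 1.12, exact conditional binomial test, two-sided p = 0.0030, adjusted p = 0.027). By the same exact test the ratio was 1.03 in replicate 1 (0.947 to 1.12, adjusted p = 0.61) and 1.06 for shared regions (0.917 to 1.22, adjusted p = 0.61). The replicate 2 counts per 1 Mb window of XR had a variance 1.60 times their mean, above the 1 that the test assumes, so its p-value may be too small. The test describes single libraries, since XR and the autosomes were measured within the same libraries.

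No difference in density was detected between XR and the older or the younger X-chromosome. The ratio of XR to XL was 0.949 in replicate 1 (95% interval 0.853 to 1.06), 1.03 in replicate 2 (0.972 to 1.09) and 0.896 for shared regions (0.752 to 1.07). The ratio of XR to the neoX was 0.967 (0.867 to 1.08), 1.03 (0.970 to 1.09) and 0.960 (0.800 to 1.15) in the same order. The lowest of the 6 adjusted p-values was 0.61. A p-value that misses the threshold does not show equal densities.

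The Muller D arm of D. melanogaster had no more peaks per Mb than the other autosomal arms. The density on 3L was 0.944 times that on the other autosomal arms in D. melanogaster replicate 1 (95% interval 0.894 to 0.996, exact p = 0.033) and 0.978 times in replicate 2 (0.926 to 1.03, exact p = 0.44). Its 449 shared regions gave 0.997 (0.894 to 1.11, exact p = 0.98). No test of the ratio on 3L against that on XR was made, since the lists of the species differ in length, assembly and rearing temperature.

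Many peaks of XR had the smallest width in the lists. No peak was narrower than 1000 bp, and 248 of 789 in replicate 1 (31.4%) and 376 of 2874 in replicate 2 (13.1%) were exactly 1000 bp wide. Widths in replicate 1 had quartiles of 1000, 1280 and 1902 bp and reached 5182 bp. In replicate 2 the quartiles were 1099, 1416 and 1863 bp, with a highest width of 7204 bp. Peaks of 2000 bp or wider numbered 98 (12.4%) in replicate 1 and 448 (15.6%) in replicate 2. The median widths on XL, the neoX and the autosomes were 1336, 1283 and 1279 bp in replicate 1 and 1444, 1410 and 1364 bp in replicate 2, and XR lay within their range in both.

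Wide peaks were denser on XR than on the autosomes in replicate 2. Considering peaks of 2000 bp or wider, a limit chosen after seeing the data, the density on XR was 1.26 times that on the autosomes in replicate 2 (95% interval 1.12 to 1.42, exact unadjusted p = 1.1e-04). In replicate 1 the ratio was 1.07 (0.827 to 1.37, exact p = 0.62). The share of peaks of this width on XR in replicate 2, 15.6% (14.3 to 16.97), lay between 15.1% on the neoX and 16.4% on XL, and the autosomes had 13.2% (12.3 to 14.1). Over all widths, the replicate 2 counts per 1 Mb window had a variance above their mean. It was 1.60 times the mean on XR, 1.85 on chromosome 2 and 2.51 on chromosome 4, so the replicate 2 p-value may be too small. The difference between the replicates was not tested.

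Each peak carries 1 deposited value, which the lists do not name. It was taken here to be the log2 of ChIP over input. On XR, 74 of the 121 distinct values of replicate 1 and 188 of the 428 of replicate 2 had a partner exactly 1 away (tolerance 1e-08), as doublings on a log2 scale would give. Orders and classes of peaks do not depend on this reading. The median value on XR was 4.13 in replicate 1 (95% interval 3.96 to 4.28, range 0.94 to 6.77) and 1.92 in replicate 2 (1.88 to 1.94, range 0.19 to 4.44). The medians of the other chromosomes were 3.96 to 4.18 in replicate 1 and 1.87 to 1.91 in replicate 2.

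The values came in few levels, which limits how finely single peaks can be ranked. In replicate 1 the commonest value, 4.96, was that of 100 peaks (12.7%), and the 5 commonest held 370 (46.9%). In replicate 2 the commonest, 2.02, was that of 168 (5.85%), and the 5 commonest held 512 (17.8%). On the linear scale 530 values of replicate 1 (67.2%) were whole multiples of 1.95 (tolerance 1e-05). These peaks had a median width of 1025 bp, against 1880 bp for the other 259.

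Across XR peaks, width and value were negatively correlated. The Spearman correlation of width and value across peaks was -0.47 in replicate 1 and -0.30 in replicate 2. It was likewise negative on XL (-0.52 and -0.29), the neoX (-0.51 and -0.29) and the autosomes (-0.45 and -0.31). On 3L of D. melanogaster it was 0.62 in replicate 1 and -0.24 in replicate 2, so the sign there differed between libraries. The relation was not steady across widths. The median value was 4.55 for peaks of 1000 bp, 3.55 for those between 1000 and 2000 bp and 4.03 for those of 2000 bp or wider in replicate 1, and 2.31, 1.83 and 1.99 in replicate 2. Peaks of 1 library share its depth and its input, so these correlations are descriptions.

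**Figure D2:**
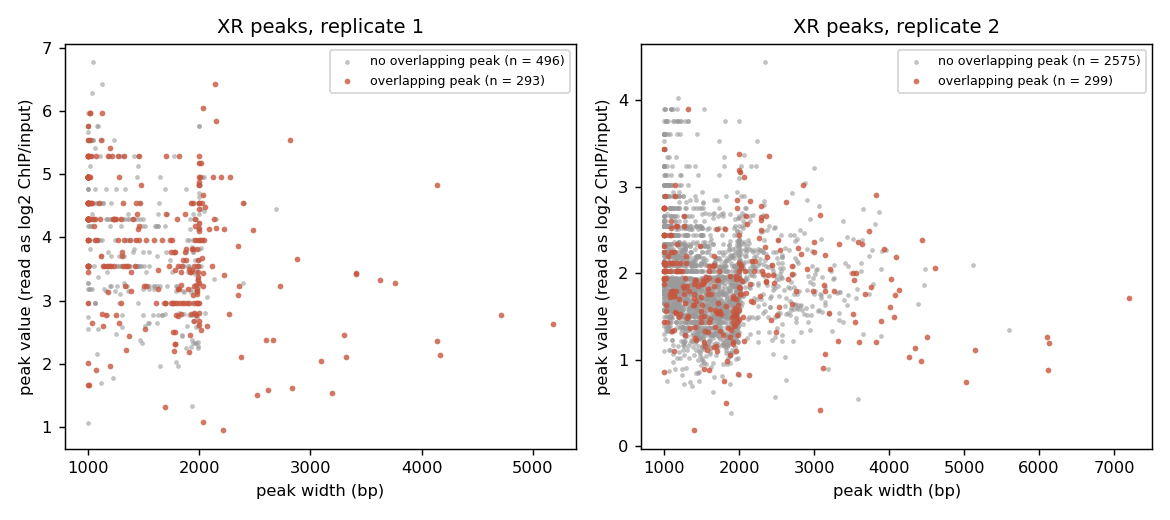
Each point is 1 XR peak, with its width in bp on the horizontal axis and its deposited value, read as log2 ChIP over input, on the vertical axis, in replicate 1 (left) and replicate 2 (right). Red points overlapped a peak of the other replicate (293 and 299 peaks) and gray points did not, and all 13 peaks of 3000 bp or wider in replicate 1 are red whereas many of the highest values are gray.

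The share of XR peaks found in both replicates was close to that of the whole genome. Of the 789 peaks of replicate 1, 293 (37.1%, exact binomial 95% interval 33.8 to 40.6) overlapped a peak of replicate 2, against 37.5% of all D. miranda peaks. Of the 2874 peaks of replicate 2, 299 (10.4%, 9.31 to 11.6) overlapped a peak of replicate 1, against 10.9% of all. XR did not stand apart from this background in either replicate.

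Stricter rules for sharing gave the same picture at lower counts. With a reciprocal overlap of 50%, 150 peaks were shared (19.0% and 5.22% of the lists on XR, against 19.6% and 5.6% of all peaks). With peak centers within 200 bp, 64 were shared (8.11% and 2.23%, against 7.49% and 2.14% of all). Under all 3 rules XR lay close to the background.

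In base pairs, 333 kb of XR lay in a peak of both replicates. This was 28.9% of the sequence in replicate 1 peaks, while replicate 2 peaks covered 14.99% of the arm, a ratio of 1.93. The ratio was 2.17 on XL, 2.16 on the neoX and 1.98 on the autosomes. The center of a replicate 1 peak lay inside a replicate 2 peak in 210 cases (26.6%, 23.6 to 29.8). This ratio of the share of base pairs in the other replicate's peaks to the share of the arm they cover is called fold over coverage below, and is near 1 where peaks of the 2 lists lie without regard to each other.

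Overlap between the replicates was higher for wider peaks and lower for peaks of higher value. The XR peaks of each replicate were ranked and divided into 4 classes, by value and separately by width. In replicate 1 the share with an overlapping peak was 46.0% in the lowest and 31.5% in the highest value class, and 24.6% in the narrowest and 53.5% in the widest class. In replicate 2 it was 13.6% and 8.58% by value and 5.99% and 19.9% by width. Both gradients had the same direction on XL, the neoX and the autosomes in both replicates.

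**Figure D3:**
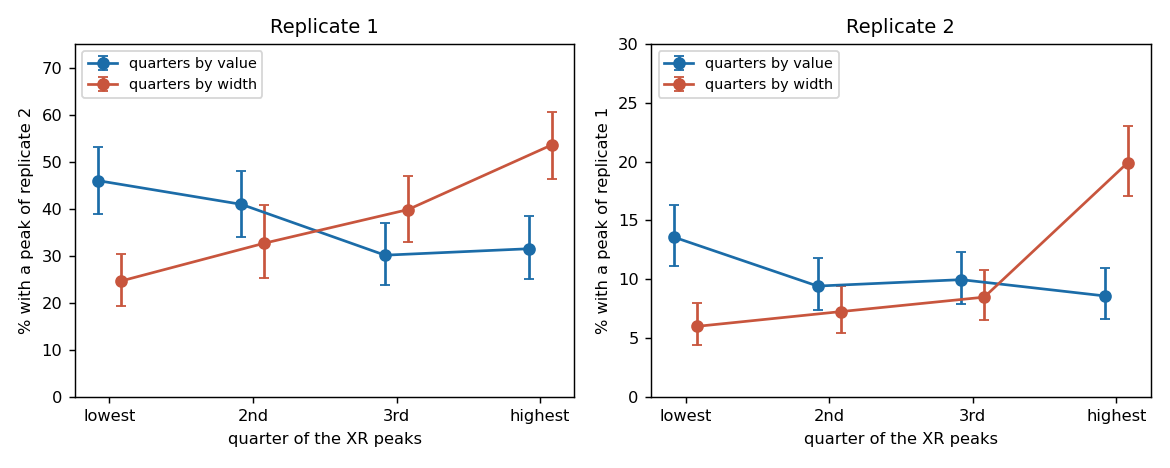
Percent of XR peaks that overlapped a peak of the other replicate, in 4 classes of peaks ranked by value (blue) or by width (red), for replicate 1 (left) and replicate 2 (right). Error bars are exact binomial 95% intervals for counting error, and the widest class stands at 53.5% and 19.9% whereas the class with the highest values stands at 31.5% and 8.58%.

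A wider peak meets another by chance more often, so the overlap was also taken in base pairs, where width gives no such advantage. The width classes were chosen after seeing the data. Peaks of 1000 bp had a fold over coverage of 1.15 in replicate 1 and 0.908 in replicate 2. Peaks between 1000 and 2000 bp had 1.56 and 1.23. Peaks of 2000 bp or wider had 3.81 and 3.96, so the wide peaks of both lists fell on common sequence far more than the narrow ones. The wide peaks of XL had 3.42 and 4.45, those of the neoX 3.68 and 4.47, and those of the autosomes 3.59 and 3.98, which places XR among them.

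As counts, 68 of the 98 widest peaks of replicate 1 (69.4%, 59.3 to 78.3) had an overlapping peak, compared with 61 of the 248 of 1000 bp (24.6%, 19.4 to 30.4). In replicate 2 the figures were 113 of 448 (25.2%, 21.3 to 29.5) and 23 of 376 (6.12%, 3.92 to 9.04). Within the wide peaks, a value above the median of all XR peaks came with less overlap in replicate 1, in 25 of 44 peaks (56.8%, 41.0 to 71.7) against 43 of 54 (79.6%, 66.5 to 89.4). In replicate 2 it was 59 of 254 (23.2%, 18.2 to 28.9) against 54 of 194 (27.8%, 21.7 to 34.7). Among peaks between 1000 and 2000 bp, the shares above and below the median value were 33.3% (25.7 to 41.7) and 38.8% (33.2 to 44.6) in replicate 1 and 5.99% (4.49 to 7.80) and 9.35% (7.76 to 11.1) in replicate 2. Peaks of 1000 bp had shares of 23.4% above (48 of 205, 17.8 to 29.8) and 30.2% below (13 of 43, 17.2 to 46.1) the median value in replicate 1. For replicate 2 these were 6.60% above and 4.11% below, which among the 6 pairs of shares was the exception to a lower share at higher values. Above 1000 bp the peaks of higher value were also narrower within each class. Median widths of the wide peaks above and below the median value were 2010.5 and 2220.5 bp in replicate 1, and 2319 and 2680 bp in replicate 2. Their fold over coverage was 2.82 above and 4.49 below it in replicate 1, and 3.42 and 4.60 in replicate 2. The fold was lower at higher values in the narrower classes as well. These differences were not tested.

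At the extremes of the lists, the widest peaks stood above all XR peaks in sharing. The share over all XR peaks was 37.1% in replicate 1 and 10.4% in replicate 2. Of the 20 widest XR peaks of replicate 1, 19 overlapped a peak of replicate 2, and of the 20 with the highest value, 7 did. In replicate 2 the counts were 15 of the 20 widest and 1 of the 20 highest. For the highest values these were 35% (15.4 to 59.2) and 5% (0.127 to 24.9), intervals that hold the share over all XR peaks. Among the 100 widest peaks of each replicate, 23 of replicate 1 overlapped one of the 100 widest of replicate 2. Among the 100 highest of each, 1 did. In replicate 1 this set ends at a value of 4.96, which 100 XR peaks hold, and ties were taken in order of position.

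The 3 widest peaks of each replicate were all shared. In replicate 1 they lay at positions 24825891 to 24831072 of XR (5182 bp, value 2.63), 14464403 to 14469118 (4716 bp, 2.77) and 4548022 to 4552190 (4169 bp, 2.14). In replicate 2 they lay at 14463157 to 14470360 (7204 bp, 1.71), 220506 to 226644 (6139 bp, 1.20) and 24825429 to 24831555 (6127 bp, 0.88). The first 2 sites of the replicate 1 list thus appear in both lists of the widest peaks, with centers 10.5 and 2 bp apart. Positions are those of the deposited lists, on a D. miranda assembly whose name is not given in the sources used here, and no gene annotation of it was used.

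The 3 peaks of highest value in each replicate were mostly without a partner. In replicate 1 the highest, at 21078358 to 21079400 (1043 bp, value 6.77), had its nearest replicate 2 center 14353.5 bp away. The next, at 12455162 to 12456288 (1127 bp, 6.42), also had no overlapping peak. The other peak at 6.42, at 16942487 to 16944624 (2138 bp), overlapped a replicate 2 peak of 1956 bp whose value of 1.10 was well below that list's median, with centers 59 bp apart. In replicate 2 the peaks at 799240 to 801579 (2340 bp, 4.44), 21686746 to 21687930 (1185 bp, 4.02) and 7270021 to 7271140 (1120 bp, 3.90) all had no overlapping peak in replicate 1. Of these 6 peaks, 1 was shared. The replicate 2 value of 3.90 was tied, and the first peak by position was named. Another replicate 2 peak at this value, in the region at 28238122 to 28240383, was shared. So few peaks cannot be set apart from the share over all XR peaks, 37.1% in replicate 1 and 10.4% in replicate 2.

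On XR, 9 sites had a peak of at least 3000 bp in both replicates, a set chosen after seeing the data. They used 9 of the 13 replicate 1 peaks of that width and 9 of the 109 of replicate 2. Their centers were 2 to 384 bp apart, and in 6 of them the replicate 1 peak lay wholly inside the replicate 2 peak. Their values were 2.05 to 4.84 in replicate 1 and 0.88 to 2.38 in replicate 2. The value lay below the XR median of 4.13 at 8 of the 9 sites in replicate 1 and below that of 1.92 at 6 of the 9 in replicate 2.

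The best match in extent was at 4854361 to 4857987, where a replicate 1 peak of 3627 bp (value 3.33) and a replicate 2 peak of 3550 bp (1.44) shared 3550 bp. It lies 22.1 kb from a second such site, at 4828930 to 4832251 in replicate 1 (3322 bp, 2.11), where replicate 2 had 4439 bp (2.38). The highest replicate 1 value of the set was at 11510889 to 11515024, with 4.84 over 4136 bp in replicate 1 and 2.36 over 3005 bp in replicate 2. There the replicate 1 peak was the wider one.

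Near the start of the arm, 3 of the 9 sites lay within the first 1 Mb. In replicate 1 they were at 222310 to 225608 (3299 bp, value 2.46), 230913 to 235050 (4138 bp, 2.36) and 484902 to 487993 (3092 bp, 2.05). The replicate 2 peaks there were 6139, 4262 and 4091 bp wide, with values of 1.20, 1.03 and 2.19. The first 2 of these are neighbors 5.3 kb apart.

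**Figure D4:**
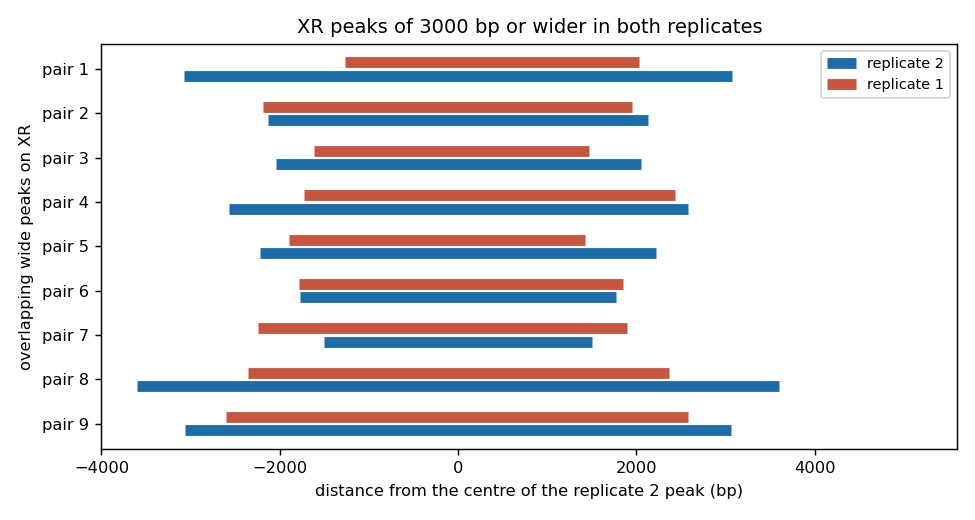
The 9 pairs of overlapping XR peaks of 3000 bp or wider in both replicates, in order along the arm, drawn to scale as bars (red, replicate 1; blue, replicate 2) against the distance in bp from the center of the replicate 2 peak. The peaks are 3005 to 7204 bp wide and the centers of each pair lie 2 to 384 bp apart.

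Such pairs occurred at 0.299 per Mb on XR (exact Poisson 95% interval 0.137 to 0.567), 0.226 on XL (0.0734 to 0.528), 0.431 on the neoX (0.197 to 0.819) and 0.157 on the autosomes (0.0754 to 0.289). With 9, 5, 9 and 10 pairs, the intervals overlap and no order of the chromosomes can be read. At 2000 bp or wider the density was 1.33 per Mb on XR (0.948 to 1.81), 1.49 on XL, 1.97 on the neoX and 1.21 on the autosomes (0.956 to 1.51), from 40 pairs on XR.

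The 287 shared regions were 1079 to 8144 bp wide, with a median of 2363 bp. A single peak of each replicate made up 271 of them. The sequence in both peaks had a median of 1000 bp and ranged from 6 to 5182 bp. Peak centers were a median of 502.5 bp apart, with 64 regions (22.3%) at 200 bp or less and 57 at more than 1000 bp. In those 57 regions (19.9%) the peaks met at their flanks or a narrow peak lay off the center of a wide one. At 214268 to 219287, for example, a replicate 1 peak of 1000 bp lay wholly inside a replicate 2 peak of 5020 bp.

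Values in the 2 replicates agreed weakly over the shared regions. The Spearman correlation was 0.27 (Pearson 0.28) for value and 0.26 (Pearson 0.46) for the summed width of the peaks, over 287 regions that share 1 pair of libraries. In 65 regions the value was among the upper 50% of XR peaks in both replicates, of 120 that were so in replicate 1 and 132 in replicate 2. Shared peaks had a lower median value than peaks without a partner, 3.87 against 4.28 in replicate 1 and 1.85 against 1.92 in replicate 2. They were wider, with medians of 1694 and 1787 bp.

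By the mean of their ranks in both lists, 5 shared regions led XR. The region at 14855276 to 14857612 had values of 5.55 and 3.38 in replicates 1 and 2. The region at 16948962 to 16955751 held 3 peaks of replicate 1 and 2 peaks of replicate 2 over 6790 bp, with highest values of 5.55 and 2.83. The others were at 4124159 to 4128262 (5.28 and 2.84), 126517 to 129595 (5.28 and 2.67) and 3700554 to 3701781 (5.28 and 2.52).

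The second of these lies in a cluster. At 4.3 kb toward lower positions is the shared peak of value 6.42 at 16942487 to 16944624 described above. In the 100 kb from 16.9 Mb on, 4 of 5 peaks of replicate 1 and 3 of 12 of replicate 2 had a partner, and all of these lay within 13.3 kb. The remaining 9 replicate 2 peaks there were 1000 to 1782 bp wide and had no partner.

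The 5 shared regions with the closest centers were not among the highest in value. They were at 14462217 to 14470360 (centers 2 bp apart, highest values 2.96 and 1.71), 13404042 to 13406427 (8 bp, 4.28 and 1.98), 24825429 to 24831555 (10.5 bp, 2.63 and 0.88), 5168963 to 5170090 (16 bp, 2.79 and 1.56) and 26016628 to 26018615 (19.5 bp, 3.45 and 1.62). In 4 of the 5 both values lay below the XR medians of their lists.

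The share of the replicate 1 list that lay on XR rose with value, within counting error. XR held 20.2% of the replicate 1 peaks of the lowest value class (17.7 to 22.97), then 21.2%, 22.8% and 24.2% in the highest (21.4 to 27.2). The intervals of the lowest and highest classes overlap, and both hold the 22.1% of the list. Such shares were not taken for XL or the neoX, and the neoX median value in replicate 1 was 4.18 against 4.13 on XR. In replicate 2 it held 22.8%, 22.0%, 24.2% and 22.8%, against 22.9% of the list, with no steady order. The density ratio was also taken for peaks at or above the median value of their list. Ties at the median were kept, 57 of them XR peaks at 3.96 in replicate 1. More than 50% of the replicate 1 list thus entered. For these peaks the density ratio of XR to the autosomes was 1.13 in replicate 1 (1.00 to 1.26, exact unadjusted p = 0.042). It was 1.40 for shared regions (1.04 to 1.86, exact unadjusted p = 0.021), from 82 shared regions on XR. Neither ratio passed the threshold with all peaks.

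Along the arm the peaks were spread with no bare region. The 30 windows of 1 Mb held 18 to 33 peaks in replicate 1 (median 27) and 73 to 121 in replicate 2 (median 94.5). Shared regions per window ranged from 1 to 19 with a median of 9. The longest stretches without a peak in either replicate were 80.2 kb at 14072321 to 14152567, 74.9 kb at 716556 to 791469 and 70.5 kb at 559481 to 629934.

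The counts of the 2 replicates per window showed no common order on XR. The Spearman correlation of the 2 counts over the 30 windows was -0.11 on XR. It was -0.09 over 22 windows of XL, 0.46 over 20 of the neoX, 0.08 over 32 of chromosome 2 and 0.52 over 28 of chromosome 4. Windows of a chromosome share the libraries, so these are descriptions.

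Shared regions were most numerous in the first window of the arm. It held 19 shared regions from 30 replicate 1 peaks and 93 replicate 2 peaks, against medians of 27 and 94.5 per window. The windows from 6 to 7 Mb, from 26 to 27 Mb and from 27 to 28 Mb followed with 13 each. The window from 18 to 19 Mb had 1 shared region although it held 21 and 73 peaks. Over 3 equal parts of the arm, shared regions lay at 10.5 per Mb (8.55 to 12.7), 8.96 (7.21 to 11.01) and 9.16 (7.38 to 11.2), which do not differ beyond counting error.

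**Figure D5:**
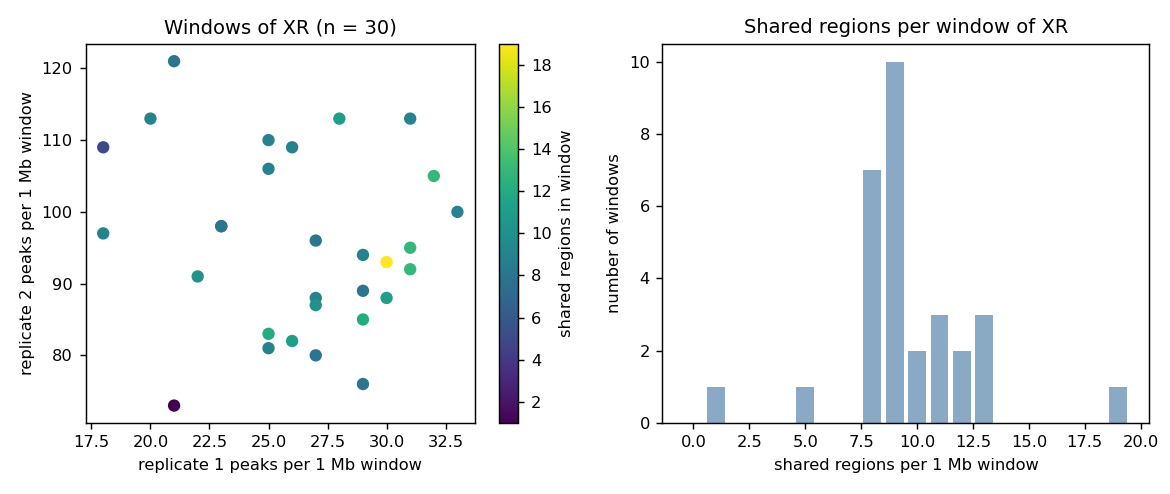
Left, replicate 2 peaks against replicate 1 peaks in each of 30 windows of 1 Mb of XR, colored by the number of shared regions. Right, the number of windows at each count of shared regions, from 1 to 19 with a median of 9.

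Close neighbors among shared regions were counted within 10 kb. Of the 287 on XR, 75 (26.1%, 21.1 to 31.6) had another within 10 kb, compared with 37.0% on XL (30.8 to 43.5), 34.8% on the neoX (28.3 to 41.7) and 21.4% on the autosomes (18.1 to 24.96). The XR interval overlaps those of all other groups, and the differences were not tested because neighboring regions are not independent. The median gap between shared regions was 64.5 kb on XR, and the longest was 910 kb. Between single peaks the median gap was 25.01 kb in replicate 1 and 5.97 kb in replicate 2.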

How the data were processed

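CLAMP ChIP-seq of D. miranda females was analysed from the deposited peak lists, 1 per ChIP library. Per the submitters' processing notes reads were aligned with Bowtie, and per the methods the authors kept unique alignments and called peaks with SPP at default settings on each replicate against its input. The sources used here give neither versions nor the name of the D. miranda assembly. The value of each peak was deposited by the authors without a name or unit, and was read as a log2 ratio. The lists hold no read counts, so the depth behind a peak is unknown.

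Arm length ran to the last position under a peak of any replicate. Densities were compared with autosomes 2, 4 and 5, XL and the neoX by an exact conditional binomial test (two-sided, threshold 0.05) with Benjamini-Hochberg adjustment over 9 comparisons. Shares carry exact Clopper-Pearson and densities exact Poisson 95% intervals. Peaks of 1 library are not independent replicates. Peaks were linked at an overlap of 1 bp and linked peaks were merged. Python 3.11.15, pandas 2.3.3 and scipy 1.17.1 were used, and the linking and the tests were tested on simulated lists. Named sites are the 5 shared regions best in mean rank of value, the 5 with the closest centers, the 3 highest and 3 widest peaks per replicate, the 3 longest gaps and the 3 windows richest in shared regions (ties by position, with 1 tied window added), with the width classes, the pairs of wide peaks, the window with 1 shared region and the cluster near 16.9 Mb chosen after their values were seen. Members, lists and rules were chosen with earlier results of these data known. Sequence under the peaks was not analysed here.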

Additional observations from a re-analysis of the deposited data

How the results depend on the processing

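Of 56 alternatives, 26 gave the same call or a value within a set limit and 27 moved a value. Another 3 brought a density ratio past the threshold and 0 reversed a direction. For counts of regions and ratios of shares the limit was a fold change, and for correlations a difference, not an error interval. Thus the count of shared XR regions was 212 with peaks wider than 1000 bp, called the same though below the interval of 255 to 322 around 287. The count of shared XR regions was 150 with a reciprocal overlap of 50% and 64 with centers within 200 bp. It was 82 with peaks at or above the median value of their list and 68 with replicate 2 cut to the length of replicate 1. With peaks of 2000 bp or wider, an alternative added after seeing the data, it was 40. The shared percentage of replicate 1 peaks was 19.0, 8.11, 18.3, 8.75 and 40.8 in the same order, and that of replicate 2 peaks 5.22, 2.23, 5.72, 8.43 and 8.93, with 8.73 for peaks wider than 1000 bp. The density ratio of XR to the autosomes for peaks at or above the median value of their list was 1.40 for shared regions and 1.13 in replicate 1. Using 1 replicate alone, the ratio ranged from 1.03 to 1.07, the latter without replicate 1 (exact p = 0.0030). These are the ratios for all peaks of each replicate given above, since 1 replicate has no shared regions. So 1 of the 3 ratios past the threshold repeats the replicate 2 test. Among peaks wider than 1000 bp the medians were 1690 bp and a value of 3.64 in replicate 1 and 1511 bp and 1.85 in replicate 2. Among shared peaks they were 1694 bp and 3.87, and 1787 bp and 1.85. The share in the highest over the lowest class in replicate 1 moved, by value, from 0.685 to 0.425 with centers within 200 bp and, by width, from 2.18 to 6.08 with that rule and 5.22 with a reciprocal overlap of 50%, all added after seeing the data. The cause of these changes was not tested. No paired analysis was possible because each result comes from the peak lists of 1 species, in which the inputs enter only through the authors' calls.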
